A study of Mus musculus and Homo sapiens with 4 samples.

Results

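The sites described here are 3 Miz1 peaks of mouse neuronal progenitor cells that stand at the genes Vamp4, Rbsn (also called Zfyve20) and Pex13. They were chosen by their mm9 positions from a list of 261 progenitor peaks, in a series whose 2 peak lists hold 3172 peaks in all. Earlier results on the same list were known when they were chosen: all 3 carry scores at or above its shared top value, and the Vamp4 and Pex13 peaks are among its widest. Score and width are therefore given as descriptions, with no test. The gene at each site was taken from the rule that chose it, because no annotation of mm9 was used here.

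The cells came from mouse brain at E13.5 and had been expanded as neurospheres, which are free-floating cultures of stem and progenitor cells. The labels name no strain, genotype or treatment. Miz1 was measured in them by chromatin immunoprecipitation and sequencing (ChIP-seq) with the antibody H190, in 1 library. The series also holds an input library of these cells, a Miz1 library made with the antibody G18 from human cells labelled MDA-MD-231, and an input of that line. No values of these 3 libraries were analysed below, and whether the progenitor input was used in calling the peaks is not stated. With 1 library no value has a replicate error. The labels and the list state no read depth, and no level of unselected chromatin stands beside the peaks. A peak shows where immunoprecipitated DNA was called as enriched, and no expression of these genes was measured.

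Miz1, encoded by Zbtb17, is a zinc-finger transcription factor that can activate genes by binding near their starts and can repress some of them as a partner of MYC. The study's title concerns its part in autophagic flux, the passage of cell material through autophagosomes to lysosomes. That passage depends on membrane fusion along the endosomal route. Vamp4 is a SNARE protein of the trans-Golgi network and endosomes, and SNAREs drive the fusion of a vesicle with its target membrane. Rbsn (rabenosyn-5) is an effector of the small GTPases Rab5 and Rab4 on early endosomes, where it takes part in tethering, fusion and recycling. Pex13 is a membrane protein of peroxisomes and belongs to the docking machinery through which enzymes are imported into that organelle. Pus10, whose start the choosing rule says is shared with Pex13, is a pseudouridine synthase that modifies RNA.

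Promoter sequences of all 3 genes were found by symbol in a RefSeq table of GRCm38.p6, in windows of 300 bases that run from 250 bases before a gene's start to 50 after it. GRCm38.p6 is another build than mm9, so the windows were not placed under the peaks and no distance between a peak and a start was measured. DNA before 1 start of each gene is shown, as part of the windows in which words of transcription factors were searched. The second Vamp4 window, the rest of the Pex13 window and the bases after each start are left out at this point. Each stretch shown runs 5′ to 3′ on the gene's own strand. Capitals mark matches to the planned words and to TCGATG, a word added after the sequences were seen and described below. Another added word, CCGCCCCG, is not marked as such. The stretch of Vamp4, GRCm38.p6 chr1:162570265-162570514, plus strand, holds CACGTG:
Vamp4, before the first start: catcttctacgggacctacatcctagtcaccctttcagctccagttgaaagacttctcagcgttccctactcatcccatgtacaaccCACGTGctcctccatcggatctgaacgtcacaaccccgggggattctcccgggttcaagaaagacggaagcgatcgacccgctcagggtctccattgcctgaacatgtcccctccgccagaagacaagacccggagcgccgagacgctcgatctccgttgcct
The stretch of Rbsn, GRCm38.p6 chr6:92214871-92215120, minus strand, holds CATCGATG, a GC box in reverse and an ETS word in reverse:
Rbsn, before its start: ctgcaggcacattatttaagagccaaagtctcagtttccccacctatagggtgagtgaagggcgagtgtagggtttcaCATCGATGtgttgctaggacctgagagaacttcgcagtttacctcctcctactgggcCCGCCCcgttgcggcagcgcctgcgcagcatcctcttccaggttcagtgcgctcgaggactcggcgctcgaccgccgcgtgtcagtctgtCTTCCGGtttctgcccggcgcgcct
The stretch of Pex13, GRCm38.p6 chr11:23665884-23665991, minus strand, is the DNA between its start and a start of Pus10 on the other strand, and it holds TGACGTCA and GC boxes that overlap:
Pex13, between the Pex13 and Pus10 starts: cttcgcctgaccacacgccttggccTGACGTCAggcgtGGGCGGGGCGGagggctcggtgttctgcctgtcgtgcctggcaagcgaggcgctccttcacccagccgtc

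The vesicle SNARE gene Vamp4 had a wide peak at the shared top score. It lay at mm9 chr1:164500440-164500905 and was 466 bp wide, 1.95 times the list median of 239 bp. Only 5 of the 261 peaks were wider, and none of them was on chromosome 1, whose 11 peaks had a median width of 244 bp. The authors' deposited score of the peak was 3100, a value that 35 peaks share and 4 exceed. The score has no unit in the files or labels, and because of the ties the place of this peak among the strongest cannot be read from it. The share of the list at or above that value was 14.9%. Such scores were known when the sites were chosen, so having one is not a result about the gene.

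The early endosome gene Rbsn had numerically the second-highest score of the list, on a peak narrow among those of top score. The scale of the score is not stated and 35 peaks share 3100, so this place does not show a stronger site than theirs. It lay at mm9 chr6:92164760-92165015, was 256 bp wide and was scored 3166.8, below only a peak of chromosome 2 at 3189.5. Its width was 1.07 times the list median, and 114 peaks were wider. Among the 39 peaks at or above 3100 it was the narrowest, 24 bp below the next, a peak of 280 bp on chromosome 1 (mm9 chr1:4847633-4847912). The other 38 reached up to 3421 bp, and the median of all 39 was 353 bp, with quartiles at 324 and 383 bp. The list also held 11 other peaks within 10 bp of the Rbsn width. Their scores ran from 170 to 1294 with a median of 830. That all were below 3100 follows from Rbsn being the narrowest peak of top score, and is no separate result.

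The peroxisome gene Pex13 had the widest peak of the 3. At mm9 chr11:23565789-23566459 it was 671 bp wide, 2.81 times the list median, and 258 of the 261 peaks were narrower. The 2 wider ones, of 1358 and 3421 bp, lay close together on chromosome 17, with narrower peaks between them. Its score was also 3100. None of the other 17 peaks on chromosome 11 was as wide, and their chromosome's median, this peak included, was 288 bp.

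A top score and a large width did not always go together in the list. Besides the Vamp4 and Pex13 peaks it held 16 others of at least 400 bp, and 6 of these reached 3100, including those 2 on chromosome 17. The lowest score among the 16 was 329.9, for a peak of 455 bp at mm9 chr11:108872888-108873342. That peak was 11 bp narrower than the Vamp4 peak. The peak of top score next below Vamp4 in width had 440 bp (mm9 chr6:30351439-30351878), and the next above it was that of Pex13. The highest score below 3100 was 3034.5, and it was the only one within 100 below 3100. Peak width and score come from the same peak calling on 1 library, so their relation says nothing about these genes.

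**Figure D1:**
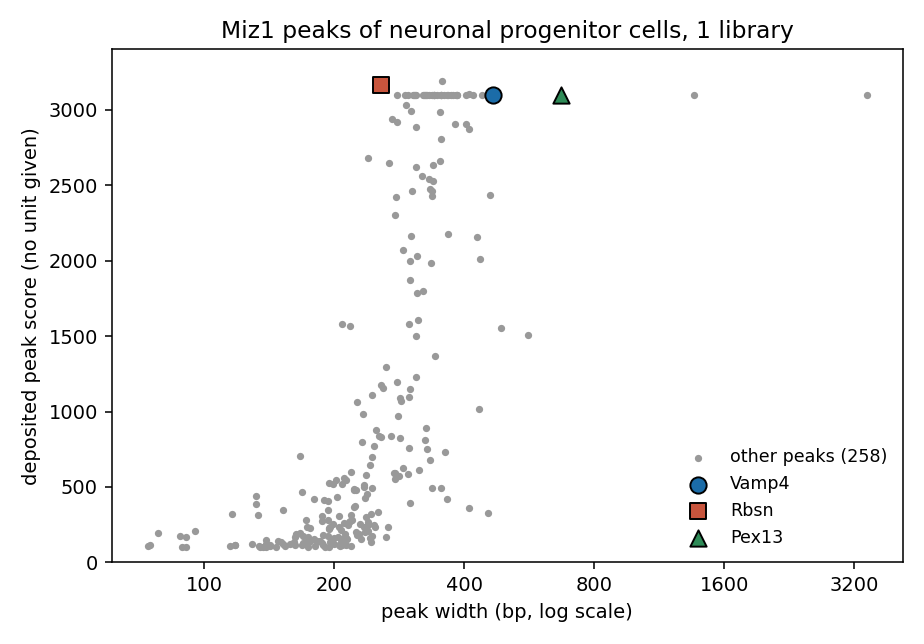
Deposited peak score (vertical axis, no unit given) against peak width (horizontal axis, bp, log scale) for the 261 Miz1 peaks of progenitor cells, 1 point per peak. The Rbsn square stands at the left edge of the row of top scores at 256 bp, and the Vamp4 circle (466 bp) and Pex13 triangle (671 bp) stand to its right.

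Each of the 3 sites was a single peak, with no other within 5 Mb on either side. The nearest peak lay 5.16 Mb from that of Vamp4, 5.70 Mb from that of Rbsn and 7.13 Mb from that of Pex13, measured between edges. Such distances are common in a list this sparse. The median distance to the nearest peak was 2.40 Mb, with quartiles at 0.675 and 6.53 Mb, so Vamp4 and Rbsn lay between the median and the upper quartile and Pex13 just above it. Of all 261 peaks, 84.3% had no other peak within 100 kb, 67.8% none within 1 Mb and 33.0% none within 5 Mb. The members were thus more isolated than the median peak, but not unusually so. Peaks at least as isolated made up 32.2% of the list for Vamp4, 30.7% for Rbsn and 23.0% for Pex13. Among the 39 peaks of top score the median distance was 3.31 Mb, and 17 of them were at least as isolated as Vamp4, 16 as Rbsn and 12 as Pex13, the members themselves included.

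**Figure D2:**
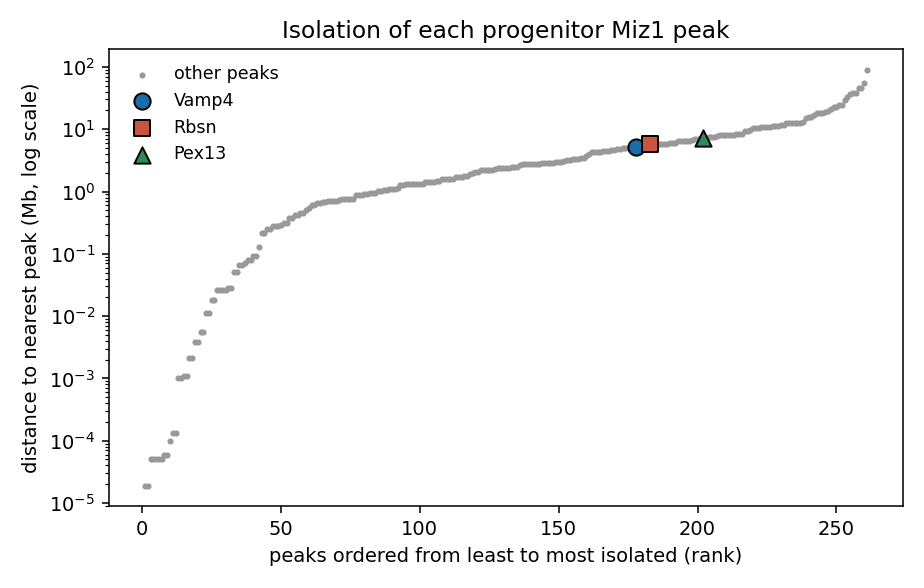
Distance to the nearest other peak of the same chromosome (vertical axis, Mb, log scale) for the 261 progenitor peaks, ordered from least to most isolated (horizontal axis, rank). The 3 members stand close together in the upper part of the curve, at 5.16, 5.70 and 7.13 Mb, with 23.0 to 32.2% of peaks at or beyond each of them.

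The neighbours of the 3 sites differed in score. On the side of lower coordinates the peak next to Vamp4 was 303 bp wide and had a score of 2459 (mm9 chr1:159342643-159342945). On its other side the next peak was 18.0 Mb away, with a score of 272.9. The nearer neighbour of Rbsn scored only 133.3 (mm9 chr6:86466235-86466395), while the one 23.5 Mb away on the other side scored 2659 (mm9 chr6:115626471-115626821). Both neighbours of Pex13 scored low, 176.5 at 7.13 Mb and 129.3 at 19.5 Mb, and each was 169 bp wide. Counting only peaks at or above the list's median score of 494, the nearest to Rbsn was 23.46 Mb away and the nearest to Pex13 20.02 Mb away, while that of Vamp4 stayed at 5.157 Mb. The stretch without any other peak spanned 23.2 Mb around Vamp4, 29.2 Mb around Rbsn and 26.6 Mb around Pex13, where the median over the 221 peaks with neighbours on both sides was 13.7 Mb. Of the other 220 such peaks, 159 had a shorter stretch than Vamp4, 185 than Rbsn and 170 than Pex13.

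**Figure D3:**
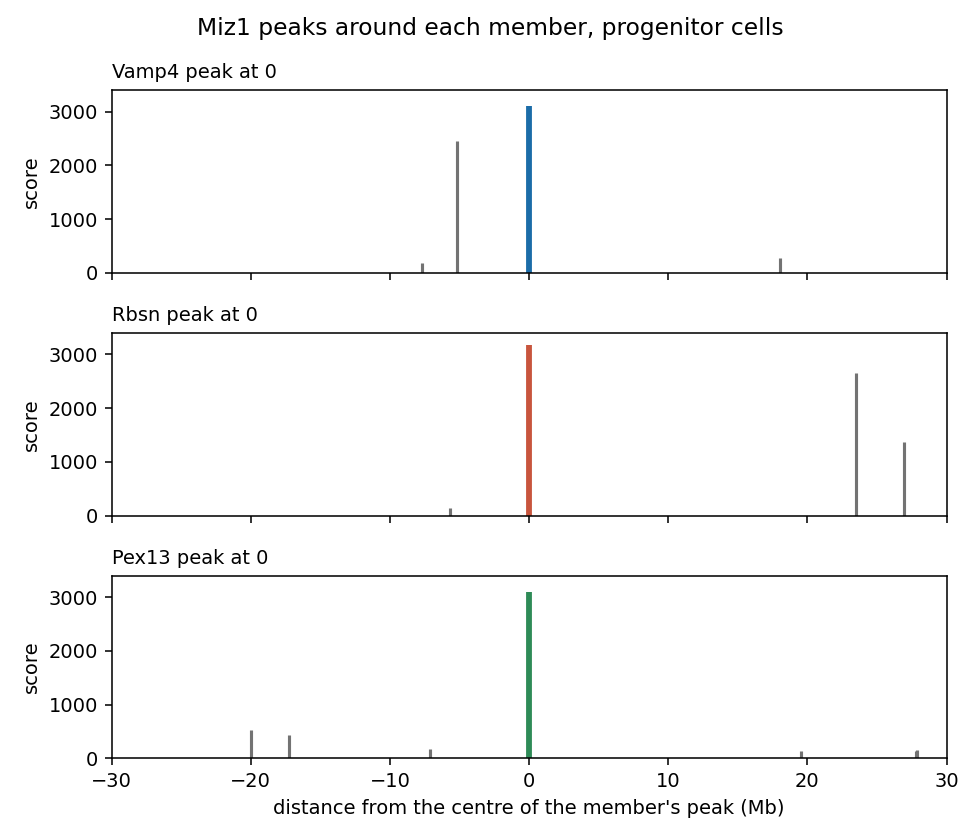
Miz1 peaks within 30 Mb of each member, with the distance from the centre of the member's peak in Mb (horizontal axis) and the deposited score as the height of each line (vertical axis). The coloured line at 0 is the member. A neighbour with a score of 2459 stands 5.16 Mb to the left of Vamp4, and the line nearest to Pex13 on its left is at 176.5 and on its right at 129.3.

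The RefSeq windows of the 3 genes were rich in G, C and CpG. Rbsn and Pex13 each had 1 window in the table, with a G and C share of 60.3% and 64.0%. Vamp4 had 2 windows, for starts 313 bp apart, with 59.7% at the first and 76.0% at the second. The median of all 32851 windows was 52.7%, with an upper quartile of 61.7%, so the Rbsn window and the first Vamp4 window lay below that quartile and the others above it. CpG pairs numbered 23 and 34 in the Vamp4 windows, 24 in that of Rbsn and 22 in that of Pex13. Over all windows the median was 7 and the upper quartile 20, and between 7.73 and 23.1% of windows held as many as a member's window did.

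Pex13 and Pus10 start close to each other. In the table a start of Pus10 lies 109 bp upstream of the Pex13 start on the opposite strand, which makes the pair divergent, and their windows overlap by 208 bases. Another Pus10 start lies 209 bp downstream of the Pex13 start. These 3 starts fall within 318 bp, less than the 671 bp of the peak, and the 2 Vamp4 starts fall within 313 bp, less than the 466 bp of its peak. Rbsn had a single start in the table. The lengths were compared across builds as lengths only, and whether the peaks cover these starts was not tested. Whether peak width goes with the number of starts was not tested either, and starts at other peaks were not counted. The peak alone cannot assign Miz1 to Pex13 rather than Pus10.

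Words of known Miz1 motifs were present in 1 of the 3 genes. The Rbsn window held ATCGAT, whose first base lies 171 bases before the start, and 0.925% of all windows hold that word on either strand. ATCGGT, found in 2.33% of windows, and GGTAATC, found in 1.11%, were in none of the members' windows. A match is a description of letters and not a measured site, and a word missing from 300 bases says nothing of binding beside them.

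Words of other promoter factors differed between the genes. The first Vamp4 window held CACGTG, the E-box recognised by MYC and related factors, 163 bases before the start, as 7.15% of windows do. TGACGTCA, the cyclic AMP response element, stood 83 bases before the Pex13 start and is in 1.79% of windows. It reads the same on both strands, and it lies 33 bases before the Pus10 start as well. CCGGAAG, a word of ETS factors, was found in reverse in the Rbsn window, beginning 25 bases before the start, and in 8.86% of all windows. The GC box GGGCGG was in windows of all 3 genes, with 3 matches at the second Vamp4 start, 1 at Rbsn and 2 that overlap at Pex13, but 35.7% of windows hold it. CCAAT (37.4% of windows) and TATAAA (13.6%) were in none of the members' windows.

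A search for letters common to the 3 genes found 23 words of 6 letters that each has on some strand in at least 1 of its windows. The search was made after the sequences were seen, so its outcome is a description and its words carry no test. The rarest of the 23 was TCGATG, which is in 2.65% of all windows, and at 812 of the 27025 genes of the table. The next rarest, AGTAGG, is in 10.7% of windows. Of the 23 words, 11 hold a CG, TCGATG among them. The members' windows are rich in CpG, and the shares over all windows take no account of that. In Rbsn the word occurs on both strands of the palindrome CATCGATG, overlapping the ATCGAT described above. In Pex13 it begins 234 bases before the start and in Vamp4 203 bases before the second start. The surroundings of these matches, with the word in capitals, are shown to compare them with the Rbsn palindrome, and run 5′ to 3′ from GRCm38.p6 chr1:162570613-162570642 on the plus strand and chr11:23666100-23666129 on the minus strand:
Vamp4, second start: gcgccgagtcgcTCGATGagcgggggcgct
Pex13: ctgccagaaacgTCGATGagcccctactca
The longest word in all 3 genes had 8 letters, CCGCCCCG, which contains the GC box in reverse and is in 7.78% of windows.

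**Figure D4:**
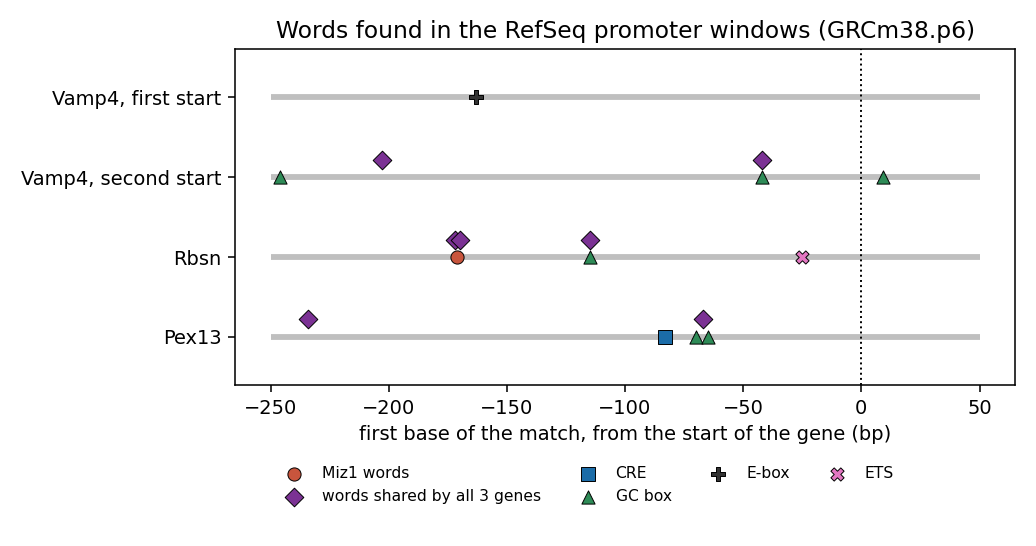
Matches to the searched words in the promoter windows of Vamp4 (both starts), Rbsn and Pex13, by the distance of the match's first base from the gene's start (horizontal axis, bp, dotted line at the start). The circle is the Miz1 word ATCGAT, present only in the Rbsn window among these at 171 bases before the start, and the diamonds are the words TCGATG and CCGCCCCG that all 3 genes hold.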

How the data were processed

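The deposited list gives a position, a name and a score for each peak of 1 progenitor library, and the score column is the authors' deposited value with no stated unit or scale. CASAVA, FastQC, Bowtie 0.12.7, MACS 1.4.2 and the build mm9 are named in the submitters' processing notes. The labels and the list state neither their settings nor read totals nor whether the input was used. Per the labels' protocols, chromatin was fixed with 1% formaldehyde and DNA near 200 bp was cut from a gel, which limits how finely a site is resolved.

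Widths, ranks with ties and distances between peak edges were computed with Python 3.11.15 and pandas 2.3.3, with positions counted from 1. All 9 planned words were searched in RefSeq promoter windows (GRCm38.p6) on both strands, palindromes counted once. The functions were tested on simulated data with known answers. The members and word lists were chosen with earlier results of these data known. Named were the 3 members, Pus10, each peak's neighbours and the top-scoring peaks next in width; the peaks of 455 bp on chromosome 11, of 3189.5 on chromosome 2 and of chromosome 17 were named after their values were seen. Counts for the SNARE, early endosome, peroxin and autophagy gene lists, and protein comparisons, were not run, because no mm9 annotation and no protein table were used here.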

Additional observations from a re-analysis of the deposited data

How the results depend on the processing

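Of 37 alternative values over 16 results, 25 stayed close to the value reported (a share within its 95% Wilson interval, a count within 1.5 times, a distance within 0.1%) and 12 moved. The interval served only as a tolerance and measures no spread, since each share describes 1 list. Merging peaks under 1 kb apart, which left 253 peaks, or measuring between centres moved none of them. Ranked only among the peaks of top score, 10.3% were at least as wide as Vamp4, 100% as Rbsn and 7.69% as Pex13. In the upper part of the list by score (131 peaks, cut at the median), 29.8% scored at least as high as Vamp4 and Pex13, by construction, since fewer peaks were counted. The share for Rbsn rose likewise, from 0.766 to 1.53%, but was counted as close because it stayed within its interval. In that set the nearest peak lay 23.46 Mb from Rbsn and 20.02 Mb from Pex13, and 43.5% of peaks were at least as isolated as Vamp4 and 16.0% as Rbsn. With a window of 1 Mb in place of 100 kb, 67.8% of peaks had no other peak inside. Searching the given strand alone left 1 word match in the Vamp4 windows, of 4, and 1 in the Rbsn window, of 3. The isolation shares under other sets of peaks and the words TCGATG and CCGCCCCG were added after the data were seen. The planned count of pathway genes near a peak was not run. No paired analysis was possible because the list comes from 1 library.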
